A study of Mus musculus with 13 samples.

Results

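Gdf15 was followed together with 9 genes of the integrated stress response, Atf4, Atf5, Ddit3, Trib3, Chac1, Asns, Sesn2, Ddit4 and Psat1, in RNA-Seq data of brain-resident myeloid cells from PS2APP mice with and without Trem2. The 10 genes were found by Ensembl identifier among the 52636 genes listed for each mouse, and all 10 passed the filter on low counts that left 17086 genes. They were selected on measured values, the counts and nRPKM in PS2APP;Trem2ko against PS2APP;Trem2wt mice, so their values in that comparison are a description and carry no test. PS2APP mice are homozygous for transgenes of human presenilin 2 (PS2, N141I) and human amyloid precursor protein (APP, K670N and M671L) and form β-amyloid plaques, and both genotypes carried them. PS2APP;Trem2wt mice (7 mice, of which 2 were male) had intact Trem2, which encodes a lipid-sensing surface receptor of myeloid cells, and PS2APP;Trem2ko mice (6 mice, of which 1 was male) carried the null allele Trem2tm1(KOMP)Vlcg in the whole animal, an allele made in C57BL/6N and brought into the C57BL/6J PS2APP line. All mice were 14 to 15 months old, and each gave 1 library from cortex and hippocampus, FACS-sorted as CD11b+ CD45+ and negative for Ccr2 and Ly6g.

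The integrated stress response starts when a kinase that senses amino acid shortage, misfolded protein, viral RNA, haem shortage or mitochondrial stress phosphorylates the translation factor eIF2α. Protein synthesis then falls in general while a few mRNAs, Atf4 and Atf5 among them, are translated more, and the transcription factor ATF4 turns on genes for amino acid supply and stress adaptation. Because ATF4 and ATF5 are controlled largely at translation, their mRNA need not follow their protein. GDF15 is a secreted cytokine, a distant member of the TGF-β superfamily, that acts on hindbrain neurons through the receptor GFRAL and its co-receptor RET, and its gene is known to be induced by ATF4, CHOP and p53.

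Total counts on genes ranged from 26120961 to 120569609 per mouse. Trem2 was present at 818 to 1244 nRPKM in PS2APP;Trem2wt mice and at 0.393 to 2.29 nRPKM in PS2APP;Trem2ko mice, where nRPKM is the RPKM value (reads scaled by gene length and library size) after adjustment by a size factor. The sorted cells had the defining RNAs of microglia, with P2ry12 at 1608 to 2280 nRPKM and Tmem119 at 1163 to 1668 nRPKM over all 13 mice. Ccr2 averaged 1.45 nRPKM in PS2APP;Trem2wt and 1.91 nRPKM in PS2APP;Trem2ko mice, and the neutrophil gene S100a8 reached 54.4 nRPKM in PS2APP;Trem2wt replicate 2, so transcripts of the cell types sorted out were low but not at 0.

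Gdf15 (ENSMUSG00000038508, chromosome 8, 70629393 to 70632456, minus strand) was the gene of the 10 that separated the genotypes. In the PS2APP;Trem2wt mice, replicates 1 to 7, Gdf15 was at 0.246, 0.168, 0.225, 0.169, 0.548, 0.188 and 0.160 nRPKM. In the PS2APP;Trem2ko mice, replicates 1 to 6, it was at 0.869, 1.08, 0.866, 0.578, 0.863 and 0.7096 nRPKM. Every PS2APP;Trem2ko mouse was above every PS2APP;Trem2wt mouse, although the margin was narrow for 1 of them: the lowest PS2APP;Trem2ko value was 1.05 times that of PS2APP;Trem2wt replicate 5 and 2.35 times the next highest PS2APP;Trem2wt value. The mean was 0.828 ± 0.171 nRPKM (SD, n = 6) against 0.244 ± 0.138 (SD, n = 7), and the fitted log2 fold change was 1.76 (SE 0.30), or 3.39-fold with a 95% interval of 2.19 to 5.25. In bulk RNA of sorted cells a higher level per cell and more cells with the transcript cannot be told apart.

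**Figure D1:**
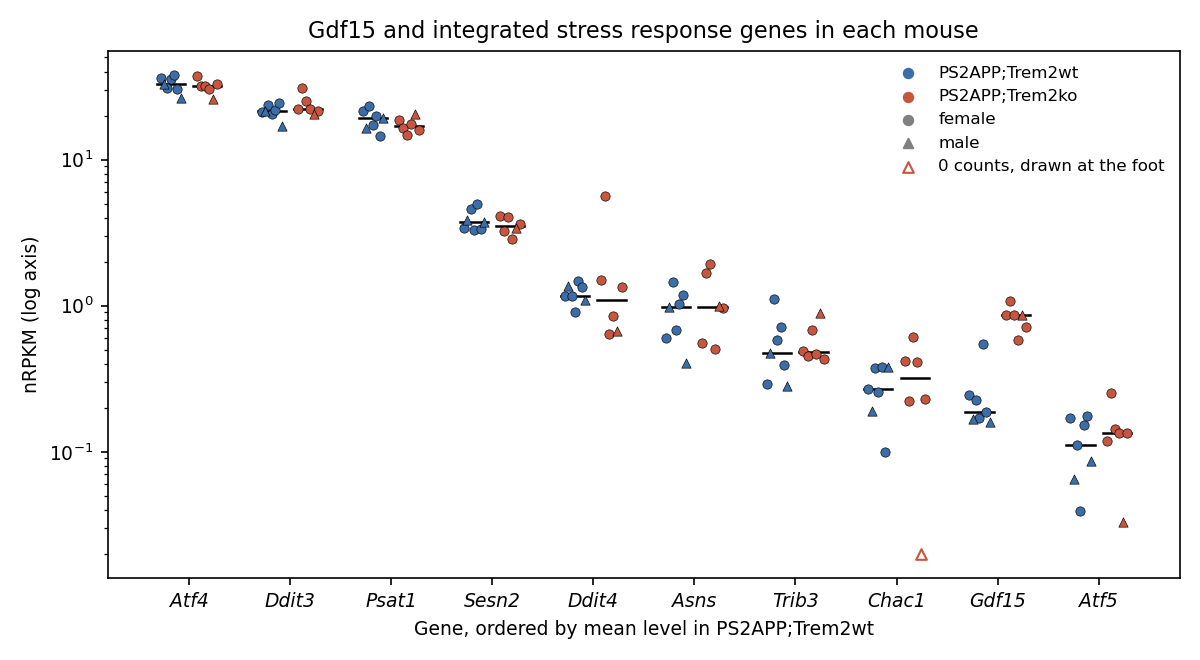
Each point is 1 mouse, with the nRPKM of each of the 10 genes on a log axis, circles for females and triangles for males, black bars for genotype medians, and genes ordered by their mean in PS2APP;Trem2wt mice. Gdf15 is the gene whose PS2APP;Trem2wt points (0.160 to 0.548) and PS2APP;Trem2ko points (0.578 to 1.08) do not overlap, and the open triangle is the PS2APP;Trem2ko male with 0 Chac1 counts.

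These are low levels, and the reads behind them bound their precision. Gdf15 had between 12 and 57 counts per PS2APP;Trem2wt mouse and between 76 and 287 per PS2APP;Trem2ko mouse, 211 and 990 counts in all. Of the 17086 genes tested, 26% had a lower mean nRPKM. When every library was thinned to the depth of the smallest, Gdf15 was left with 8 to 33 counts (median 12) in PS2APP;Trem2wt mice and 42 to 80 counts (median 53) in PS2APP;Trem2ko mice, again without overlap. None of the 50-base words of Gdf15 transcripts occurred in transcripts of another gene, and the annotation placed no other gene over it.

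**Figure D2:**
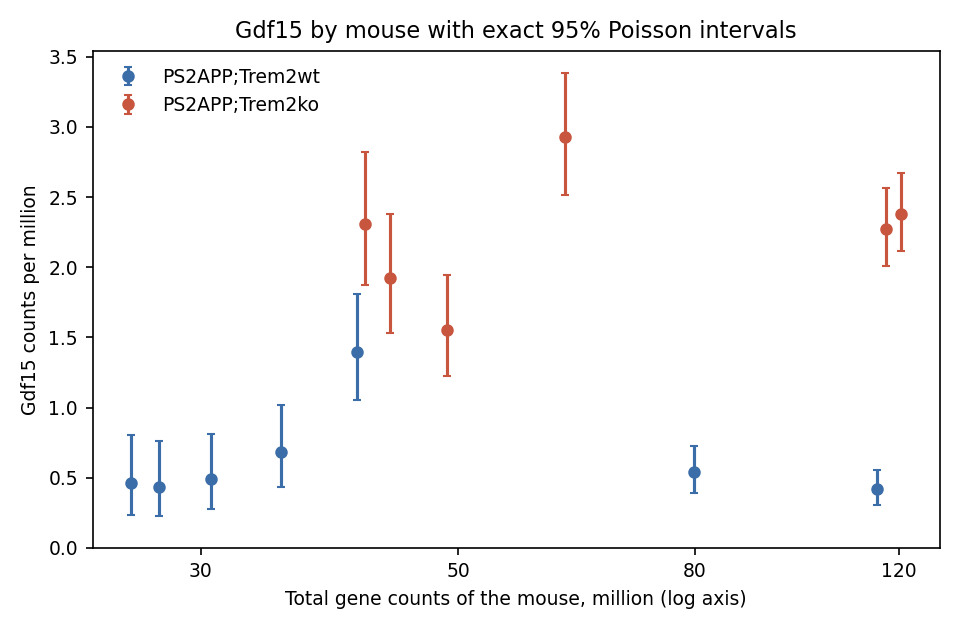
Each point is the Gdf15 value of 1 mouse in CPM (counts scaled to library size) against that mouse's total (log axis), with the exact 95% Poisson interval of the count, which covers counting error only. The deepest PS2APP;Trem2wt library had 48 Gdf15 counts and the deepest PS2APP;Trem2ko library 287. PS2APP;Trem2wt replicates 1, 2, 4 and 6, with totals of 26120961 to 35201380, were shallower than every PS2APP;Trem2ko library. The shallowest PS2APP;Trem2ko library had 41567025.

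Sorted by sex, the same order held. The 2 PS2APP;Trem2wt males had the values 0.168 and 0.160 nRPKM and the PS2APP;Trem2ko male 0.863 nRPKM. Among females the PS2APP;Trem2wt mice lay between 0.169 and 0.548 nRPKM and the PS2APP;Trem2ko mice between 0.578 and 1.08 nRPKM. With females alone the log2 fold change was 1.57.

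The genes around Gdf15 on chromosome 8 did not share its difference. Of 13 listed genes within 100 kb, 9 were tested, and their log2 fold changes ran from -0.16 (Lsm4, an RNA-processing subunit) to 0.11 (Ssbp4). None of the 9 passed an adjusted p of 0.05 with edgeR, voom and limma or DESeq2, and 0 had an unadjusted p of 0.05 or less by any of the 3. The immediate neighbours Pgpep1, a peptidase, and Lrrc25, a leucine-rich repeat protein, were at -0.03 (SE 0.07) and -0.03 (SE 0.14). The receptor genes were all but missing from these cells: Gfral had 5 counts, all in 1 PS2APP;Trem2wt mouse, and Ret 57 counts over the 13 mice, and neither passed the filter.

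The start sites of the 10 genes were compared for the motif that ATF4 and C/EBP factors are known to bind together, the C/EBP-ATF response element, searched as TGATGNAA on both strands (N is any base) from 250 bases before to 50 bases after each RefSeq start on GRCm38.p6. RefSeq had 13 such windows for the 10 genes, and 3 genes held the element, Asns, Chac1 and Trib3. Of 32851 windows of all genes, 1304 (3.97%) held it. The windows of these 3 genes and both windows of Gdf15 are shown because Gdf15 differed between genotypes and those 3 are the textbook ATF4 targets with a match, and capitals mark the element as read on the gene's strand.
Gdf15 upstream start (chr8:70632407-70632706, minus strand): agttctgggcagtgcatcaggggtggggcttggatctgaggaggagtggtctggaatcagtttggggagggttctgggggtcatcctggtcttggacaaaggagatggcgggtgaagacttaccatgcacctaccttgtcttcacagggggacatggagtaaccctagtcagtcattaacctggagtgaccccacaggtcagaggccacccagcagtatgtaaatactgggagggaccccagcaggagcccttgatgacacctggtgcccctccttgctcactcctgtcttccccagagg
Gdf15 downstream start (chr8:70632046-70632345, minus strand): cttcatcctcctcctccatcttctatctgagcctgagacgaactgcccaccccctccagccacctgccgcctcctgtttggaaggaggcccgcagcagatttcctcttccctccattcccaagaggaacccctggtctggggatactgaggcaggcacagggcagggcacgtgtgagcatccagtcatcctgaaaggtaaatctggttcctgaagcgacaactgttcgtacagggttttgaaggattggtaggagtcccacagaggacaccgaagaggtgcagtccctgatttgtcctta
Asns (chr6:7693160-7693459, minus strand): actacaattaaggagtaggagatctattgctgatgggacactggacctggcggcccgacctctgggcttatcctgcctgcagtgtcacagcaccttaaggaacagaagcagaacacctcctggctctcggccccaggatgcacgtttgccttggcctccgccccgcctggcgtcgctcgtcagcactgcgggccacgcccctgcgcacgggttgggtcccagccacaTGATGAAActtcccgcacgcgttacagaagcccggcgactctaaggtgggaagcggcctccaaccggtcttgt
Chac1 (chr2:119350992-119351291, plus strand): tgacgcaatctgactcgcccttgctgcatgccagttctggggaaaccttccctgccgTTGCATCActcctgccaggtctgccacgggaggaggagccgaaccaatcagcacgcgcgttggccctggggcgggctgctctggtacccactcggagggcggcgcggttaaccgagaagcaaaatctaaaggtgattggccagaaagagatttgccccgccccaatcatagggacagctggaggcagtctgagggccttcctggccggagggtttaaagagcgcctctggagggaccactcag
Trib3 (chr2:152344011-152344310, minus strand): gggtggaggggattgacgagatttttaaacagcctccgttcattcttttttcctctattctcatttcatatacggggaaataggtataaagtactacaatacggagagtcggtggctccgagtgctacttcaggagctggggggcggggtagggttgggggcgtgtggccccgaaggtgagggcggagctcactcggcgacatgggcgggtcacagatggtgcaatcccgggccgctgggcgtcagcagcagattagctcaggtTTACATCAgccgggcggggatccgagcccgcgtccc
The match began at position -23 in Asns, counted from the start base as 0, where it read TGATGAAA on the gene's strand. In Chac1 it lay on the other strand, began at -193 and read TTGCATCA, and in Trib3 it lay on the other strand past the start, at 14, and read TTACATCA. No window of Gdf15, Atf4, Atf5, Ddit3, Sesn2, Ddit4 or Psat1 held these letters, which says nothing of elements farther away or spelled differently. The endoplasmic reticulum stress response element, searched as CCAAT and CCACG with 9 bases between them, was in no window of the 10 genes and in 0.119% of all windows.

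Apart from Gdf15, the values of the 10 genes overlapped between the genotypes. The call rule across all genes was edgeR's quasi-likelihood test with a Benjamini-Hochberg threshold of 0.05. By it, 0.503% of all genes tested were higher in PS2APP;Trem2ko mice, 1.53% were lower, and 1 of the 10 genes, Gdf15, was higher. Because the genes were picked with this comparison known, nothing is read from that count. Gdf15 ranked at position 3 by fold change among the 86 genes called higher, of which 9 were at least 2-fold higher. Complete separation with PS2APP;Trem2ko above was seen for 0.421% of all genes, and among the 10 only for Gdf15.

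**Figure D3:**
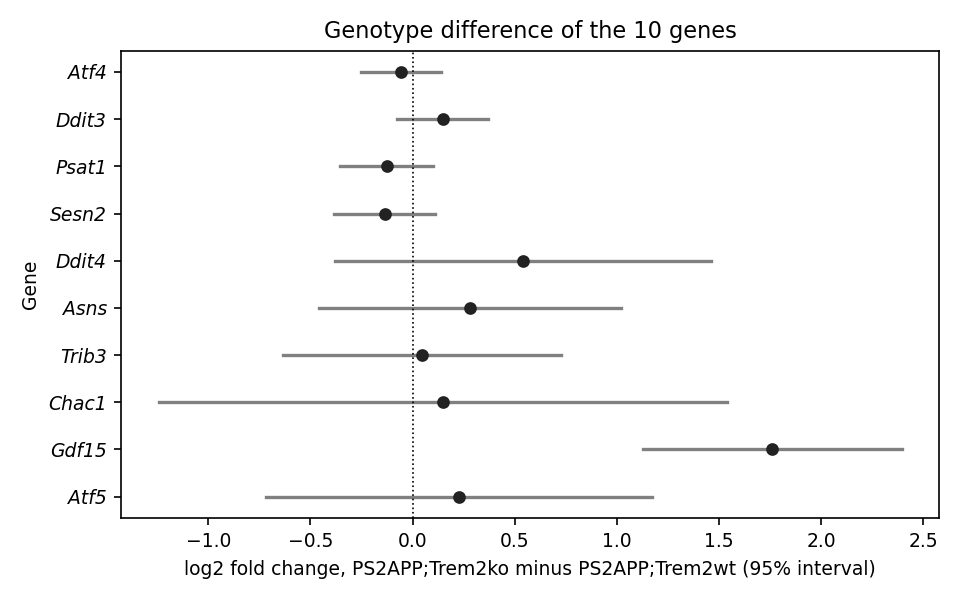
Points are edgeR log2 fold changes of the 10 genes, PS2APP;Trem2ko minus PS2APP;Trem2wt, and lines their 95% intervals. Gdf15 lies at 1.76 with an interval of 1.13 to 2.39, Atf4, Ddit3, Psat1 and Sesn2 have narrow intervals around 0, and Chac1 has the widest, from -1.24 to 1.54.

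Atf4 and Ddit3, the transcription factors at the centre of the response, were abundant and nearly equal in both genotypes. Atf4 ranged from 26.3 to 38.1 nRPKM (median 32.6) in PS2APP;Trem2wt mice and from 26.04 to 37.3 (median 31.8) in PS2APP;Trem2ko mice, with 2168 or more counts in every mouse. Its log2 fold change was -0.06 (SE 0.09), with a 95% interval from -0.25 to 0.14. Ddit3, which encodes CHOP, ranged from 17.0 to 24.4 nRPKM (median 21.6) in PS2APP;Trem2wt and from 20.4 to 30.9 (median 22.2) in PS2APP;Trem2ko mice, a log2 fold change of 0.15 (SE 0.10). The 95% interval of Ddit3 ran from -0.08 to 0.37. Both intervals lay within 1.5-fold of no change, a description, since the genes were chosen with this comparison known. The genotypes overlapped for both, with the highest Ddit3 value in PS2APP;Trem2ko replicate 2. The end of Ddit3 overlaps Mars, a tRNA synthetase gene on the opposite strand with up to 19672 counts, and the sources used here do not say whether reads were counted by strand.

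Atf5, a related factor that supports the mitochondrial stress response, was the lowest of the 10 genes. It had 0.0394 to 0.175 nRPKM (median 0.112) in PS2APP;Trem2wt mice and 0.0332 to 0.250 (median 0.134) in PS2APP;Trem2ko mice. With 3 to 45 counts per mouse the 95% interval of its log2 fold change of 0.23 (SE 0.44) ran from -0.72 to 1.17, so a level 2-fold higher is within it. The gene overlaps the start of Nup62, a nuclear pore gene on the opposite strand with up to 6381 counts, and reads of the overlap cannot be assigned without strand.

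Trib3 and Chac1 are sensitive ATF4 and CHOP targets, Trib3 a pseudokinase that restrains the response and Chac1 an enzyme that degrades glutathione. Trib3 had 0.284 to 1.10 nRPKM (median 0.474) in PS2APP;Trem2wt and 0.432 to 0.887 (median 0.478) in PS2APP;Trem2ko mice, and the genotypes overlapped throughout. Its log2 fold change was 0.05 (SE 0.32). Chac1 varied widely among mice of 1 genotype, from 0.0993 to 0.381 nRPKM (median 0.267) in PS2APP;Trem2wt and from 0 to 0.612 (median 0.321) in PS2APP;Trem2ko mice. The 0 belonged to PS2APP;Trem2ko replicate 5, the male of that genotype, which had no Chac1 count among 116906312, a depth at which 3 counts are 0.0257 CPM. The fitted log2 fold change was 0.15 (SE 0.65) and its sign turned with the tool, since voom and limma gave -1.57. Chac1 is therefore described by its values alone, and those of the other 5 PS2APP;Trem2ko mice overlapped those of PS2APP;Trem2wt mice.

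Asns and Psat1 stand for amino acid synthesis, Asns making asparagine and Psat1 a step of serine synthesis. Asns had 0.403 to 1.46 nRPKM (median 0.984) in PS2APP;Trem2wt and 0.502 to 1.92 (median 0.976) in PS2APP;Trem2ko mice, a log2 fold change of 0.28 (SE 0.35). The medians were nearly the same, and PS2APP;Trem2ko replicates 2 and 3 were the highest of all mice at 1.68 and 1.92 nRPKM. Psat1 had 14.6 to 23.1 nRPKM (median 19.3) in PS2APP;Trem2wt and 14.7 to 20.5 (median 17.0) in PS2APP;Trem2ko mice, a log2 fold change of -0.13 (SE 0.11). Psat1 was about as evenly expressed as Ddit3, whereas Asns varied 3.62-fold from the lowest to the highest PS2APP;Trem2wt mouse.

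Sesn2 and Ddit4 both restrain mTORC1, the growth-promoting kinase complex, Sesn2 as a leucine sensor and Ddit4 (REDD1) as a stress-induced inhibitor. Sesn2 had 3.30 to 4.96 nRPKM (median 3.72) in PS2APP;Trem2wt and 2.87 to 4.10 (median 3.49) in PS2APP;Trem2ko mice, a log2 fold change of -0.14 (SE 0.12). Ddit4 had 0.909 to 1.48 nRPKM (median 1.17) in PS2APP;Trem2wt and 0.638 to 5.59 (median 1.10) in PS2APP;Trem2ko mice. The highest value was that of PS2APP;Trem2ko replicate 2 alone, and the next was 1.49 nRPKM. The fitted log2 fold change was 0.54 (SE 0.43) with this mouse and -0.28 without it, when the PS2APP;Trem2ko mean was 1.0 ± 0.39 nRPKM (SD, n = 5).

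The order of the levels was stable where the levels were far apart. In PS2APP;Trem2wt mice the mean nRPKM fell from Atf4 (32.9) through Ddit3 (21.4), Psat1 (18.8), Sesn2 (3.88), Ddit4 (1.22), Asns (0.904), Trib3 (0.548), Chac1 (0.278) and Gdf15 (0.244) to Atf5 (0.114). Atf4 was above Ddit3, Psat1 above Sesn2, Asns above Trib3 and Gdf15 above Atf5 in 13 of 13 mice. Ddit3 and Psat1, and Ddit4 and Asns, kept their order in 10 of 13 mice, and Sesn2 with Ddit4 and Trib3 with Chac1 kept theirs in 12. Differences in level between genes were not tested. Chac1 was above Gdf15 in 5 of 13 mice, all of them PS2APP;Trem2wt.

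Sex was a contrast that the choice of genes did not use. With genotype as a covariate in edgeR's quasi-likelihood test, 0.0234% of all genes tested were higher and 0% were lower in the 10 females than in the 3 males. The filter on low counts was set by genotype, so genes expressed only in the 3 males could not pass it, and the 0% does not cover them. Of the 10 genes followed here, 0 passed an adjusted p of 0.05. At an unadjusted p of 0.05 or less 2 of the 10 differed with edgeR, 3 with voom and limma and 2 with DESeq2, beside 6.95% of all genes with edgeR. Atf4 was at 30.5 to 38.1 nRPKM in females and 26.04 to 32.6 in males, a log2 difference of 0.26 (SE 0.09, unadjusted p = 0.0155, adjusted p = 0.713 from edgeR). Atf5 was at 0.0394 to 0.250 nRPKM in females and 0.0332 to 0.0868 in males, a log2 difference of 1.21 (SE 0.52, unadjusted p = 0.0351, adjusted p = 0.713 from edgeR). The edgeR count of 2 fell to 0 without PS2APP;Trem2ko replicate 5, the male of that genotype, and to 1 without PS2APP;Trem2wt replicate 1, 6 or 7. Gdf15 differed by 0.38 (SE 0.35) and did not pass before adjustment either.

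Whether the 10 genes went up and down together from mouse to mouse was asked after subtracting the genotype means from log2 CPM, which removes the difference they were picked with. Over 13 mice the median Pearson r of the 45 pairs was 0.27, and 34 of 45 were positive, but 0 passed an adjusted p of 0.05 by permutation within genotypes (100000 permutations, two-sided, adjusted over 45 pairs). The closest pair was Ddit3 and Asns, with r = 0.75 (permutation p = 0.00422, adjusted p = 0.19) and Spearman's rho = 0.81 (permutation p = 0.00161, adjusted p = 0.0724). Without the 2 mice farthest from the median of Ddit3, r was 0.66. Gdf15 was nearest to Sesn2, with r = 0.62 (permutation p = 0.0292, adjusted p = 0.573) and rho = 0.41 (permutation p = 0.188, adjusted p = 0.663), and r fell to 0.21 without the 2 mice farthest from the median of Gdf15. With Atf4 and Ddit3, its known regulators, Gdf15 had r = 0.46 and r = 0.35 (permutation p = 0.14 and 0.212, adjusted p = 0.614 and 0.653). Psat1 followed library size most closely among the 10 (r = 0.68, permutation p = 0.018, adjusted p = 0.18 over 10), and Gdf15 did not (r = 0.07, permutation p = 0.859, adjusted p = 0.954).

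The other genes of the pathway gave few differences. In 9 lists that run from the eIF2α kinases to the mitochondrial stress response, 117 of 121 distinct genes were tested, and 1 of them (0.855%) rose in PS2APP;Trem2ko mice while 0 fell, beside 0.503% and 1.53% of all genes. Their median log2 fold change was 0.01, beside 0.00 over all genes, and for 94 of 117 the 95% interval lay within 0.5 of no change on the log2 scale, beside 47.7% of all genes. Interval width depends on counts, and the lists were not matched to all genes by level, so these 2 shares are not compared. Before adjustment 5 (4.27%) were higher and 10 (8.55%) lower at the same threshold, beside 7.29% and 7.56% of all genes. DESeq2 called 2 higher and 2 lower, beside 325 and 526 over all genes. With voom and limma 1 was higher and 0 were lower, beside 111 and 325 over all genes.

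**Figure D4:**
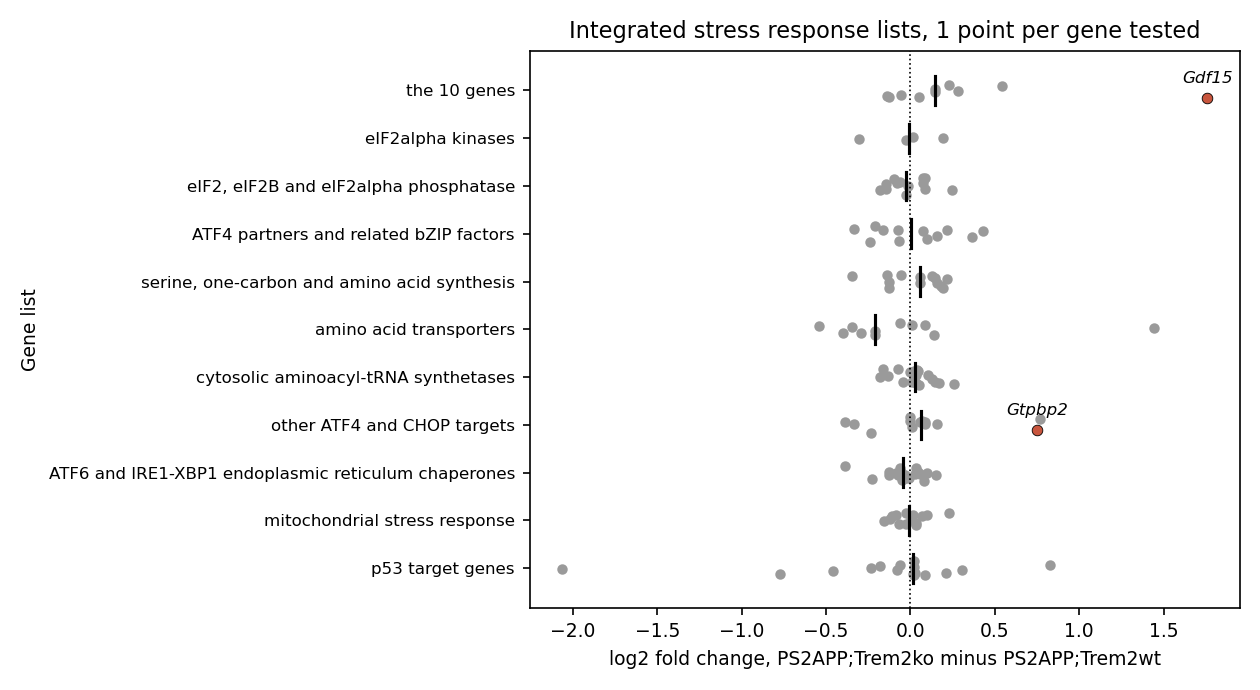
Each point is the edgeR log2 fold change of 1 gene tested, PS2APP;Trem2ko minus PS2APP;Trem2wt, by list, black bars are medians, and coloured points passed an adjusted p of 0.05. Gdf15 among the 10 genes and Gtpbp2 among the ATF4 and CHOP targets are coloured, and the medians of the other lists lie between -0.21 and 0.06.

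The gene that rose was Gtpbp2 (chromosome 17, 46161032 to 46169370), which encodes a GTP-binding protein that helps rescue stalled ribosomes. It was at 4.12 to 7.32 nRPKM (median 4.91) in PS2APP;Trem2wt and 6.86 to 12.02 (median 8.24) in PS2APP;Trem2ko mice, and 4 of 6 PS2APP;Trem2ko mice were above the highest PS2APP;Trem2wt mouse. The log2 difference was 0.75 (SE 0.17), with an adjusted p of 0.032 from edgeR that ran from 0.000933 to 0.0826 over 24 alternatives. The call was lost without PS2APP;Trem2ko replicate 1 (adjusted p = 0.0826), 2 (0.0708) or 6 (0.0636) and without PS2APP;Trem2wt replicate 1 (0.0553), 3 (0.0656), 4 (0.0645), 5 (0.0574) or 6 (0.0652). Gtpbp2 lies 2177 kb from Trem2 on the same chromosome. Within 5 Mb of Trem2, itself left out, 2 of 100 tested genes were called higher, Gtpbp2 among them, and 4 lower. Over all genes tested the shares were 0.503% higher and 1.53% lower. The paper set Treml1 aside as an artifact of the inserted knockout cassette, and the counts given here left out only Trem2. The part of linkage in the Gtpbp2 difference was not tested.

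Upstream, the 4 eIF2α kinases had log2 fold changes from -0.30 (SE 0.17) for Eif2ak3, the PERK kinase of the endoplasmic reticulum, to 0.19 (SE 0.10) for Eif2ak2, the PKR kinase of viral RNA, and 0 of 4 passed with any of the 3 tools, also before adjustment. Of 13 genes for eIF2, its exchange factor eIF2B and the eIF2α phosphatase 0 passed with edgeR or voom and limma. Eif2b3, an eIF2B subunit, had the largest value, 0.24 (SE 0.07, adjusted p = 0.0937 from edgeR), passed with DESeq2 and was the gene of this list with an unadjusted p under 0.05, and Eif2s3x had the lowest, -0.18 (SE 0.29). Among 12 partners and relatives of ATF4, 0 passed with edgeR and 2 had a lower level at an unadjusted p of 0.05 or less. Atf3 was the lowest at -0.33 (SE 0.09, adjusted p = 0.0774 from edgeR) and passed with DESeq2, and Jdp2, a repressor that pairs with ATF3, the highest at 0.43 (SE 0.21).

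Downstream, 0 of 13 tested genes of serine, one-carbon and amino acid synthesis passed with any tool or before adjustment, from Mthfd2, a mitochondrial folate enzyme, at -0.34 (SE 0.18) to Shmt1 at 0.22 (SE 0.16). Amino acid transporters had a median log2 fold change of -0.21, with 7 of 11 values below 0. At an unadjusted edgeR p of 0.05 or less 4 were lower and 1 was higher, beside 7.56% and 7.29% of all genes. After adjustment 0 of 11 passed with edgeR, voom and limma or DESeq2. The extremes were Slc7a11, the cystine importer, at -0.54 (SE 0.35) and Slc7a3, a cationic amino acid transporter at 1.45 (SE 0.58). The 20 cytosolic tRNA synthetases ran from -0.18 (Yars) to 0.26 (Qars), with all 20 intervals within 0.5 of no change. With any of the 3 tools 0 passed, although 1 higher and 1 lower had an unadjusted edgeR p of 0.05 or less. Among 14 tested further targets of ATF4 and CHOP, the range ran from Ndrg1 at -0.39 (SE 0.31) to Vldlr, a lipoprotein receptor, at 0.77 (SE 0.49), with Gtpbp2 the gene called by edgeR.

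The neighbouring arms of the unfolded protein response also gave few differences. Of 20 endoplasmic reticulum chaperones and partners driven by ATF6 and XBP1, 19 had an interval within 0.5 of no change, and 0 passed with edgeR or voom and limma while DESeq2 called Hyou1 lower. Hyou1, a chaperone, was lowest at -0.39 (SE 0.12, adjusted p = 0.123 from edgeR), 2 genes of the list had an unadjusted p of 0.05 or less, both lower, and Creld2 was highest at 0.15 (SE 0.13). All 14 genes of the mitochondrial stress response lay within 0.5 of no change, from -0.16 (Yme1l1, a protease) to 0.23 (Lonp1, a protease), and 0 passed with any tool, with Lonp1 alone under an unadjusted edgeR p of 0.05.

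GDF15 is also a p53 target, so 16 tested genes of the p53 response were set beside it. With edgeR 0 passed. At an unadjusted p of 0.05 or less 1 was higher and 3 were lower, beside 7.29% and 7.56% of all genes. Phlda3, an inhibitor of AKT signalling, was the lowest, at 1.51 to 3.30 nRPKM in PS2APP;Trem2wt and 0.0168 to 1.04 in PS2APP;Trem2ko mice without overlap, a log2 difference of -2.07 (SE 0.53) with an adjusted p of 0.0582 from edgeR. Plk2, a stress-induced kinase, was the highest at 0.83 (SE 0.22, adjusted p = 0.0659 from edgeR). DESeq2 called Plk2 higher and Phlda3 and Bbc3 lower, and voom and limma called Phlda3 lower, while Trp53 itself was at 0.01 (SE 0.08). Over all genes DESeq2 called 325 higher and 526 lower, and voom and limma 111 and 325. The members' closest paralogues, Sesn1, Sesn3, Ddit4l, Trib1, Trib2 and Chac2, ran from -0.70 (SE 0.63) for Trib2 to 0.38 (SE 0.20) for Sesn3, and 0 of 6 passed with any tool or before adjustment.

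Immediate early and heat shock RNA, which can be raised while cells are dissociated and sorted, varied between mice. Its 12 genes summed to 582 to 1419 CPM (median 653) in PS2APP;Trem2wt and 583 to 1934 (median 775) in PS2APP;Trem2ko mice, and Atf3 at -0.33 and Fos at 1.54 (SE 0.86) had the extreme fold changes, with 0 of 12 called by edgeR, 1 lower before adjustment and Atf3 called by DESeq2. PS2APP;Trem2wt replicate 5, with the highest sum of its genotype, was also the PS2APP;Trem2wt mouse with the highest Gdf15, Atf4, Sesn2 and Ddit4. Within genotypes Gdf15 had r = 0.65 with the log2 sum (permutation p = 0.00951, adjusted p = 0.0805 over the 10 genes) and rho = 0.48 (permutation p = 0.0994, adjusted p = 0.229), and r = 0.56 without the 2 mice farthest from the median. Sesn2 (r = 0.65, permutation p = 0.0169) and Atf4 (r = 0.63, permutation p = 0.0242) had the same adjusted p of 0.0805. Without those 2 mice r ran from 0.02 for Psat1 to 0.78 for Ddit3 among the 10 genes. None of the 10 genes passed after adjustment. In a fit with the log2 sum as a covariate, an analysis chosen after the data were seen, the log2 fold change of Gdf15 was 1.72, beside 1.76 without it. Gdf15 was selected on this comparison, so both values are a description. The part of dissociation and sorting in the Gdf15 difference was not tested.

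**Figure D5:**
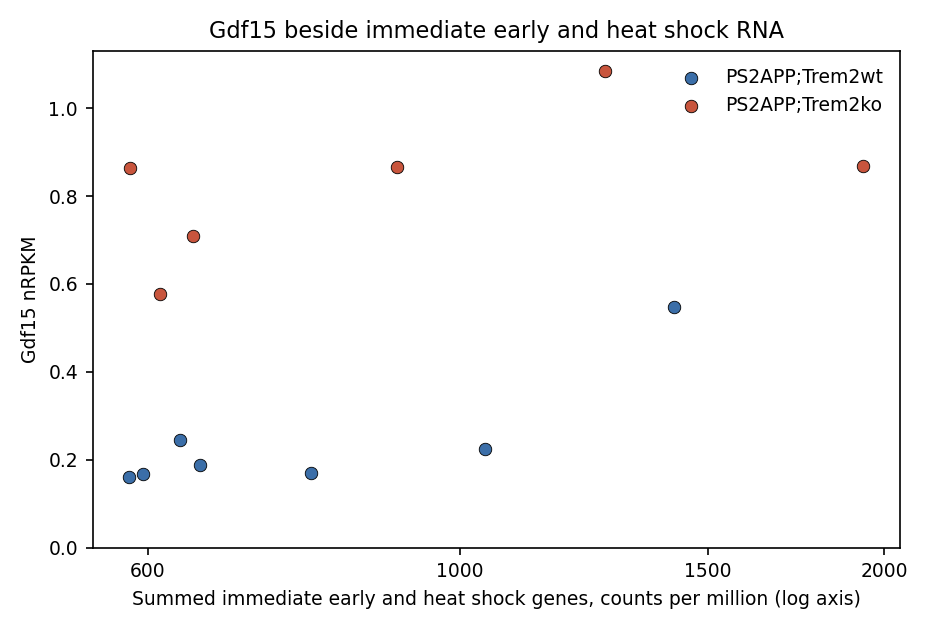
Each point is 1 mouse, with the summed CPM of 12 immediate early and heat shock genes (log axis) and the nRPKM of Gdf15. PS2APP;Trem2wt replicate 5 (1419 CPM, 0.548 nRPKM) is the highest blue point, and the PS2APP;Trem2ko male has the lowest sum of its genotype (583) at 0.863 nRPKM.

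Glucocorticoid-induced RNA was highest in 2 PS2APP;Trem2ko mice. Its 8 genes summed to 944 to 1201 CPM in PS2APP;Trem2wt and 953 to 1527 in PS2APP;Trem2ko mice, where replicates 1 and 2 were at 1418 and 1527 and the other 4 at 953 to 1027. Ddit4, itself a gene known to respond to glucocorticoids, was at 1.49 nRPKM in replicate 1 and 5.59 nRPKM in replicate 2. The list ran from Zbtb16 at -0.40 (SE 0.42) to Dusp1 at 0.83 (SE 0.60), with 0 of 8 passing with any tool or before adjustment, and its part in the Ddit4 value was not tested.

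Markers of other cell types were low beside those of microglia, whose 10 markers summed to 57524 to 66216 CPM. The 7 neutrophil markers summed to 22.8 to 376 CPM (median 73.9) in PS2APP;Trem2wt and 0.137 to 75.6 (median 49.5) in PS2APP;Trem2ko mice, and all 5 tested lay below 0, from Camp at -1.61 (SE 0.75) to Ltf at -1.25 (SE 0.73), with 0 called by edgeR, voom and limma or DESeq2 and 2, 0 and 1 lower before adjustment. Gdf15 was at 0.168 nRPKM in the mouse with the highest neutrophil sum (PS2APP;Trem2wt replicate 2) and at 0.7096 nRPKM in the mouse with the lowest (PS2APP;Trem2ko replicate 6). These 2 mice also differ in genotype. Within PS2APP;Trem2wt, the mouse with the lowest sum (replicate 4, 22.8 CPM) had Gdf15 at 0.169 nRPKM. Border macrophage markers summed to 45.1 to 151 CPM in PS2APP;Trem2wt and 86.3 to 216 in PS2APP;Trem2ko mice, and monocyte markers to 9.06 to 33.4 and 12.6 to 69.7. Neuron markers summed to 17.3 to 49.9 and 16.7 to 54.0, astrocyte markers to 374 to 497 and 440 to 556, oligodendrocyte markers to 210 to 345 and 188 to 301 and endothelial and mural markers to 65.9 to 125 and 55.1 to 92.2. Slc1a3, a glutamate transporter on the astrocyte list, was at 40.1 to 52.2 nRPKM in PS2APP;Trem2wt and 49.3 to 62.5 in PS2APP;Trem2ko mice, a log2 value of 0.30 (SE 0.07) that missed the threshold with edgeR (adjusted p = 0.0533), passed with voom and limma and with DESeq2, and passed in 9 of 24 alternatives. It gave most of the astrocyte sum, with 260365 counts over the 13 mice beside 46123 for Gfap, the next. Of the 6 astrocyte genes 3 lay above and 3 below 0, with a median log2 fold change of -0.03. T and NK cell markers summed to 0.587 to 6.56 and 1.21 to 11.8 CPM, with all 5 tested above 0, 0 called by any of the 3 tools and 1, 0 and 1 higher before adjustment. Over all genes 7.29% were higher and 7.56% lower with edgeR before adjustment. Of 10 microglia markers Cx3cr1, the fractalkine receptor, fell by 0.49 on the log2 scale (SE 0.09, adjusted p = 0.0067 from edgeR) and the other 9 did not pass. Flt1, a VEGF receptor on the endothelial list, fell by 2.20 (SE 0.28, adjusted p = 0.000336 from edgeR) while the other 6 of that list did not pass. The part of these cell types in the Gdf15 value was not tested.

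The genes most like Gdf15 across the 13 mice were taken by Pearson r of log2 CPM. They were Rad9a, a DNA damage checkpoint gene (r = 0.90), Zfp131 (0.89), Gm16712 (0.88), Fcrl1, an Fc receptor-like gene (0.87), and 3110056K07Rik (0.86). This likeness includes the genotype difference that Gdf15 was picked for: Zfp131 was at 4.31 to 5.11 nRPKM in PS2APP;Trem2wt and 5.80 to 6.84 in PS2APP;Trem2ko mice, and Fcrl1 at 17.3 to 20.1 and 25.9 to 31.6. Once genotype means were subtracted the closest were other genes, Ndufa10, a subunit of respiratory complex I (r = 0.85), Ighj1 (0.82), Prr3 (0.82), Spr (0.81) and Tubd1 (0.80). The genes closest to the mean of all 10, genotype means subtracted, were Taf6l (r = 0.93), Rnd2 (0.91), H2-Q5 (0.89), Herpud1 (0.89) and Tspan17 (0.89). Herpud1, an endoplasmic reticulum degradation gene, was also on the list of ATF4 and CHOP targets and was at 94.0 to 118 nRPKM in PS2APP;Trem2wt and 100.2 to 131 in PS2APP;Trem2ko mice. All of these r are the highest of 17086 genes over 13 mice and are descriptions.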

How the data were processed

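RNA-Seq was performed on RNA of sorted brain-resident myeloid cells. RNA was amplified with a SMART-seq kit and sequenced as single-end 50-base reads, and the authors aligned reads to GRCm38 with GSNAP, whose version is not given in the sources used here. For each mouse the authors deposited raw counts of reads per gene and nRPKM, an RPKM adjusted by a size factor. Symbols and positions were taken from GENCODE M21 (GRCm38), which matched 52403 of 52636 genes, and promoter sequences from RefSeq.

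The 10 genes and all lists were chosen with earlier results of these data known. The genes named are the 10, from each list those past the threshold and the highest and lowest fold changes, and the nearest 5 genes of each kind. Genes near Gdf15 and Bbc3, Trp53, Calr, P2ry12, Tmem119, Ccr2 and S100a8 were added after values were seen. Counts were tested with edgeR 4.0.16 in R 4.3.3 (filterByExpr by genotype, TMM scaling, glmQLFit and glmQLFTest, no covariate, Benjamini-Hochberg adjustment), and each SE was obtained as the log2 fold change divided by the square root of F. The limit of counting was 3 counts. The test was first run on simulated data. Permutations were run in Python 3.11.15 with numpy 2.4.6 and scipy 1.17.1. Alternatives were DESeq2 1.42.0, voom and limma 3.58.1, a minimum of 10 counts in 6 mice or none, RLE scaling, thinned counts, a 2-fold threshold, females only, a term for sex, log2(nRPKM + 0.1) or log2(nRPKM + 1) in limma, leaving out each mouse and, added later, the immediate early sum as a covariate. Over 36 pairs of mice of the same genotype no libraries were alike within sampling noise.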

Additional observations from a re-analysis of the deposited data

Results flagged for a closer look

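In 20 groups, the 10 genes in each genotype, the highest or lowest mouse was compared with the rest by its gap over the range, a rule that marks about 1 in 20 groups by chance. It marked 2 groups. Gdf15 in PS2APP;Trem2wt replicate 5 was 0.548 nRPKM, where the other PS2APP;Trem2wt mice were between 0.160 and 0.246 and the gap was 0.778 of the range. Leaving this mouse out gave a log2 fold change of 2.09. Ddit4 in PS2APP;Trem2ko replicate 2 was 5.59 nRPKM, where the other PS2APP;Trem2ko mice were between 0.638 and 1.49 and the gap was 0.828 of the range.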

How the results depend on the processing

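Across all genes, 86 were higher and 262 lower in PS2APP;Trem2ko mice. DESeq2 gave 325 higher and 526 lower, no filter 53 higher, females only 173 lower, and a 2-fold threshold 9 higher and 118 lower. Leaving out each mouse gave between 42 and 107 higher and between 191 and 284 lower. The count of higher genes changed by more than 1.5 times without PS2APP;Trem2ko replicate 1 (42) and without PS2APP;Trem2wt replicate 2 (53), 3 (56), 4 (47), 5 (53) or 6 (48). The cause was not tested.

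Gdf15 was higher in PS2APP;Trem2ko mice under all 24 alternatives, a description, since it was selected on this comparison. Its log2 fold change ran from 1.67 to 2.09 when each mouse was left out and was 1.93 with voom and limma, 1.77 with DESeq2, 1.90 with thinned counts, 1.49 on log2(nRPKM + 0.1) and 0.56 on log2(nRPKM + 1), where the added 1 exceeds most Gdf15 values. None of the 10 genes was called by sex and no pair passed under any of 16 alternatives each. Among the other 9 genes, Chac1 (voom and limma, -1.57) and Ddit4 (without PS2APP;Trem2ko replicate 2, -0.28) moved by more than 1 SD between mice of a genotype on the log2 scale, and Trib3 turned from 0.05 to -0.30 with females only. Of the pathway genes, 1 was called higher and 0 lower. DESeq2 gave 2 higher and 2 lower, females only 1 lower, the immediate early sum as a covariate 0 higher (Gtpbp2, adjusted p = 0.0584), and leaving out each mouse between 0 and 1 in each direction, with Eif2b3 in place of Gtpbp2 without PS2APP;Trem2ko replicate 6, Calr lower without PS2APP;Trem2ko replicate 2 and Atf3 lower without PS2APP;Trem2ko replicate 5. No paired analysis was possible because the labels do not say which mice were processed together.

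Gdf15, Chac1 and Atf5 rest on few reads per mouse, and for Atf5, Chac1, Asns, Trib3 and Ddit4 the intervals do not exclude a 1.5-fold difference. Sex is read from 3 males. SMART-seq libraries without molecular identifiers give reads that are not independent molecules. RNA levels say nothing of translation or of secreted GDF15, and no mice without the PS2APP transgenes were among these samples.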
